A study of Mus musculus with 12 samples.

Results

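Surface activation and costimulation markers of regulatory T cells (Treg) were followed across genotype and stimulation through 8 genes chosen by symbol, Cd28, Icos, Cd69, Cd83, Cd44, Klrg1, Cd5 and Cd38, among the 36222 genes of an RNA sequencing table. Each symbol belonged to a single gene identifier, and all 8 passed the filter on low values, at least 5 TPM (transcripts per 1000000, a level per transcript length) as the mean of the highest group, which 13318 genes passed. Treg, labelled as derived from spleen, were sorted as CD4+ YFP+ cells from single mice on the B6 background, and every animal carried Foxp3-YFP-Cre, in which the Foxp3 locus drives Cre and the yellow reporter. The wild-type (WT) mice carried that driver alone, and the conditional knockout (cKO) mice also carried floxed Ikzf1 alleles, so that Ikaros, the zinc finger factor encoded by Ikzf1, was lost in cells that express Foxp3. Mice for the ex vivo samples were 6 to 8 weeks old. RNA was taken from unstimulated (ex vivo) Treg of both genotypes and from Treg of both that had been stimulated for 4 h by plate-bound antibodies against CD3 and CD28 (1 µg/ml of each), with 3 libraries, each of 1 mouse, in each of the 4 groups.

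T cells need a signal through the antigen receptor and a second one through costimulatory receptors. CD28 gives this second signal when it binds CD80 or CD86, and ICOS, its relative in the same gene cluster, binds ICOSL and is typical of activated and effector Treg. CD69 and CD83 are membrane proteins that classically appear early after activation; CD69 holds cells in tissue by taking the egress receptor S1PR1 off the surface. CD44, the hyaluronan receptor, and KLRG1, an inhibitory lectin-like receptor for cadherins, are high on effector and memory cells, CD5 dampens signals of the antigen receptor, and CD38 is an ectoenzyme that consumes NAD.

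In the mm9 build (GENCODE vM1) Cd28 lay on chromosome 1 at 60773644 to 60830203 and Icos on the same strand at 61034771 to 61057164, with 204567 bases between them. Klrg1 (122220614 to 122232900) and Cd69 (129217342 to 129225387) were both on the minus strand of chromosome 6, Cd44 on chromosome 2 (102651298 to 102741822, minus strand), Cd38 on chromosome 5 (44260048 to 44303614, plus strand), Cd83 on chromosome 13 (43880476 to 43898499, plus strand) and Cd5 on chromosome 19 (10792633 to 10813464, minus strand). No exon of the 8 genes overlapped an exon of another gene on either strand. Counts were made per gene, so the 14 annotated Cd44 transcripts, which differ in variable exons, were not told apart.

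The RefSeq promoter table (GRCm38.p6, a later build than that of the expression files) held Cd44, Cd5 and Cd38, 3 of the 8 genes. Cd28, Icos, Cd69, Cd83 and Klrg1 were not matched. The 250 bases before the start site are shown, 5′ to 3′ on the strand of the gene, because the factor removed in these mice is known to bind TGGGAA. Capitals mark TGGGAA or its reverse complement.
Cd44: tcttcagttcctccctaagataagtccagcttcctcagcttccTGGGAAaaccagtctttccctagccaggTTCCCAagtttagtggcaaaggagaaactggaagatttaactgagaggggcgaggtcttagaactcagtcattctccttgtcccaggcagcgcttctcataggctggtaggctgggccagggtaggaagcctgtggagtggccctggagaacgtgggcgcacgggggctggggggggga
Cd5: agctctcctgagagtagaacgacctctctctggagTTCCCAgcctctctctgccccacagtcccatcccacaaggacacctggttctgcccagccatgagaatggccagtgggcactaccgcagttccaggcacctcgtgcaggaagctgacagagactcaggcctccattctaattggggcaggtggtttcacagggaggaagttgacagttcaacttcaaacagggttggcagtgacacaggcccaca
Cd38: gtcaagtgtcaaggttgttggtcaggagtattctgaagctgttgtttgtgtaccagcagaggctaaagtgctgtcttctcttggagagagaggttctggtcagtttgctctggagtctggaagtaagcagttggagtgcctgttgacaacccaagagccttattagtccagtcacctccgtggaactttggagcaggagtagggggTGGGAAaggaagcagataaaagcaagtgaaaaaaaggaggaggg
The windows were chr2:102901666-102901915 (minus strand) for Cd44, chr19:10738975-10739224 (minus strand) for Cd5 and chr5:43868559-43868808 (plus strand) for Cd38. Cd44 held TGGGAA once on each strand, beginning 207 and 179 bases before the start site. In Cd5 it lay on the opposite strand, 215 bases before the start, and in Cd38 on the gene's strand, 44 bases before it. Searched on both strands, these letters occurred in 21.6% of all 32851 promoter windows of this length. TGANTCA (an AP-1 motif, in 6.75% of windows) and TGTGGT (a RUNX motif, in 14% of them) were in none of the 3 windows. A match describes the sequence and is not a measured site.

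Before the comparisons, 3 features of the libraries were measured. Ikzf1, the deleted gene, stood ex vivo at 114, 104 and 113 TMM-scaled TPM in WT and 42.1, 33.0 and 38.4 in cKO. After stimulation the WT libraries had 66.7, 71.1 and 68.9 and the cKO libraries 30.0, 30.1 and 23.3, so it was lower in every cKO library and not absent from any. TMM-scaled TPM are the deposited TPM divided by a library factor (trimmed mean of M-values), used because the predicted gene Gm10800 took from 17.7% to 55.9% of the TPM of a library, most in cKO stimulated (48.8% ± 6.58, SD, n = 3). The third WT ex vivo library carried Xist at 179 TPM and the Y-linked Ddx3y at 0.0970 TPM, against at most 1.36 and at least 14.7 TPM in the other 11, so it came from a female and the others from males. Fitted values of the 8 genes that rest on this library are given with and without it; it is the third value wherever WT ex vivo libraries are listed. Reads on genes numbered 8208659 to 20247649 per library, and those on the 8 genes ranged from 84 (Klrg1, cKO stimulated) to 24268 (Cd28, cKO ex vivo). Median scaled TPM of 1716 olfactory and vomeronasal receptor genes, which T cells are not known to use, was 0.726 to 1.18 in the 4 groups, and their 95th percentile at most 2.33. All 8 genes lay above that range in every library.

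In WT ex vivo the genes fell into 4 ranges of level. Cd69 (388 ± 122 scaled TPM, SD, n = 3), Cd5 (283 ± 23.3) and Cd28 (279 ± 19.2) led, with library ranges that overlapped from each to the next. Cd83 (119.7 ± 21.9) and Icos (103 ± 3.2) also overlapped and stood apart from Cd28 above and from Cd44 (55.0 ± 4.42) below, which was alone in its range. Cd38 (10.1 ± 1.32) and Klrg1 (9.90 ± 0.859) were lowest and overlapped. The order changed with condition. In WT stimulated Cd5 (291 ± 14.1) led alone, followed by Cd69 (146 ± 16.5), Cd28 (108 ± 4.99) and Cd83 (104 ± 17.3), of which the last pair overlapped. In cKO stimulated Cd5 (172 ± 22.7) and Icos (156 ± 27.0) led with overlapping ranges and Cd28 (67.5 ± 8.46) was the fifth. Cd44 was the sixth in all 4 groups, and the order by deposited TPM differed only in WT ex vivo, where Klrg1 and Cd38 changed places. The spread within a group, as SD over mean, was 3.08% to 17.3% for Icos and widest for Cd69 in WT ex vivo, at 31.6%.

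**Figure D1:**
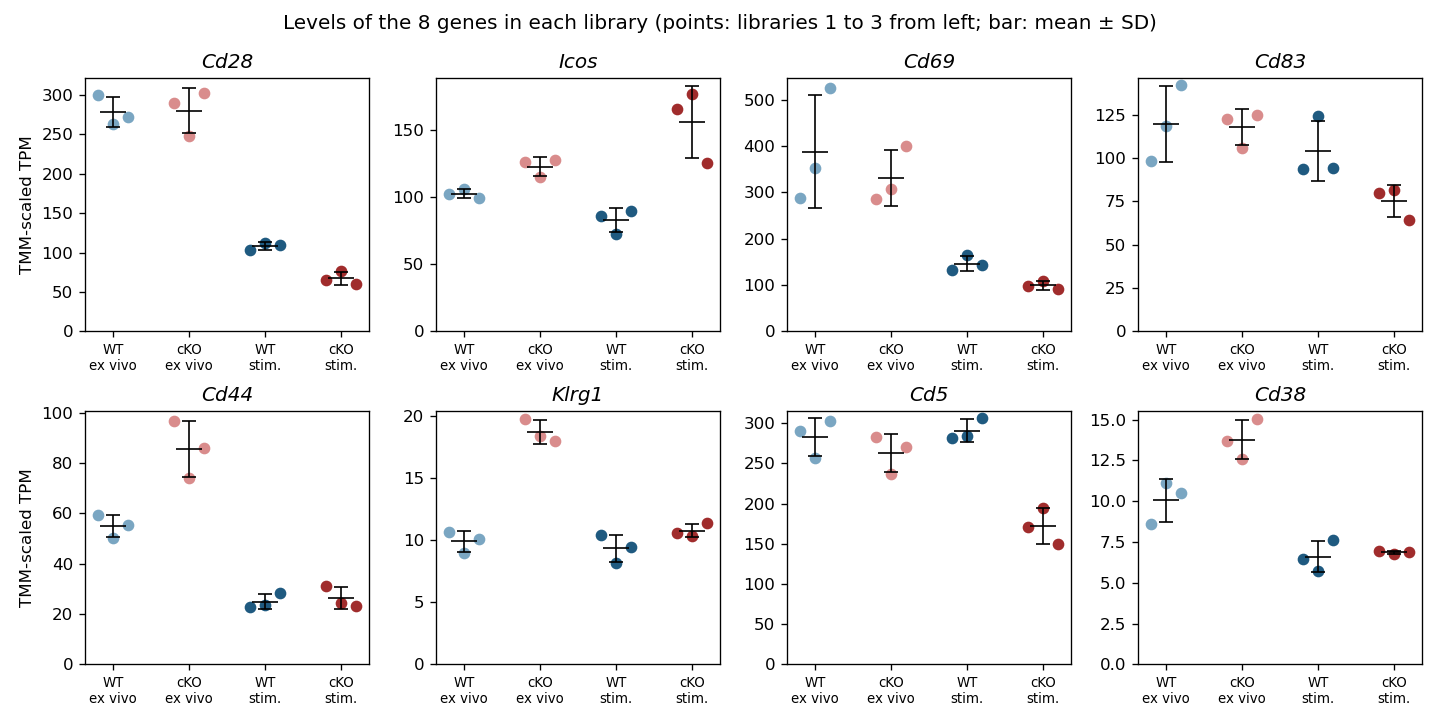
TMM-scaled TPM (vertical axes, from 0, a scale of its own for each gene) of the 8 genes in the 3 libraries of each group; points are libraries and bars the mean ± SD. Cd28, Cd69 and Cd44 dropped from ex vivo to stimulated in both genotypes, and Klrg1 stood out in cKO ex vivo. Cd5, Cd28, Cd69 and Cd83 overlapped between the genotypes ex vivo and were apart after stimulation. Icos was apart in both conditions, by more after stimulation.

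The first question was what the loss of Ikaros did to these genes in unstimulated Treg. Klrg1 and Cd44, both high on effector Treg, were higher in cKO than in WT ex vivo, Klrg1 by 1.81-fold and Cd44 by 1.54-fold in the fit. The costimulatory receptors and the early activation markers did not pass the test. Thus 2 of the 8 genes were called, both higher, at an adjusted p under 0.05 in limma across all 13318 genes (Benjamini-Hochberg, two-sided, groups of 3), while 5.29% of all tested genes were called, 3.62% higher and 1.67% lower. In bulk RNA, more cells with a transcript and more RNA per cell cannot be told apart. Both calls were lost when the filter was lowered to 1 TPM (adjusted p 0.141 for Klrg1 and 0.665 for Cd44).

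Klrg1 was at 10.6, 8.96 and 10.1 scaled TPM in WT ex vivo and at 19.8, 18.4 and 18 in cKO ex vivo. Every cKO library stood well above every WT library, and the 3 cKO values lay close together. The limma log2 difference was 0.86 (SE 0.10, adjusted p 0.000725). It was 0.87 (adjusted p 0.00500) without the female WT library, and all 12 fits that left out a library made the call, at up to 0.00593. The reads behind these values were 94 to 382 per library. Klrg1 is among the genes that the study listed as changed on these same samples, so its direction is not independent evidence, and the same holds for Icos, Cd5 and Cd28 after stimulation.

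Cd44 was at 59.2, 50.4 and 55.3 scaled TPM in WT ex vivo and at 96.6, 74.2 and 85.9 in cKO ex vivo. The groups did not overlap, but the cKO libraries were spread more widely. The log2 difference of 0.62 (SE 0.14, limma adjusted p 0.0251) passed the test with all libraries. The call was lost without WT ex vivo 2 or 3 or without cKO ex vivo 1 or 3 (adjusted p up to 0.103; 0.0793 without the female library, where the difference was 0.63), and with the TPM as deposited (0.113).

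Cd38, the NAD-consuming ectoenzyme, was at 8.59, 11.1 and 10.5 scaled TPM in WT and at 13.7, 12.6 and 15 in cKO. All cKO libraries were above all WT libraries, but the log2 difference of 0.42 (95% interval 0.16 to 0.68) missed the threshold (limma adjusted p 0.0655; 0.121 without the female library). It passed with a pseudocount of 5 (0.0485) and with voom on the recovered reads (0.0124).

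Icos was at 102, 106 and 99.5 scaled TPM in WT and at 126, 115 and 127 in cKO. These groups also did not overlap, at a log2 difference of 0.25 (95% interval -0.03 to 0.53, limma adjusted p 0.335). Cd28, at 300.1, 263 and 272 in WT and 290.3, 248 and 302 in cKO, overlapped fully. Its difference was 0.01 with an interval of -0.24 to 0.25, so log2 differences beyond 0.25 in either direction lay outside it.

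The remaining genes overlapped between the genotypes. Cd5 was at 289.8, 257 and 302 scaled TPM in WT and 283, 237 and 270.4 in cKO (log2 difference -0.10, 95% interval -0.36 to 0.15). Cd83 was at 98.3, 119 and 142 in WT and 123, 106 and 125 in cKO (-0.01, -0.36 to 0.34). Cd69 was at 288, 352 and 524 in WT and 285, 307 and 399 in cKO (-0.20, -0.65 to 0.25). The WT value of 524 came from the female library, without which the Cd69 difference was 0.04 and that of Cd83 0.12. None of the 3 passed the test with or without it. Without it the difference was 0.45 for Cd38, 0.23 for Icos, -0.06 for Cd5 and -0.01 for Cd28, and none of these was called.

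Genes around these receptors were counted by lists of their partners and pathways. Among 8 tested relatives and ligands of CD28 and ICOS, 3 were higher and 0 lower ex vivo (median log2 difference 0.21, against -0.01 over all tested genes). They included Cd80, a CD28 ligand (1.33, SE 0.22, limma adjusted p 0.00587), and Cd274, which encodes PD-L1 (0.68, SE 0.13, 0.0140). Of 7 tested CD44 partners 3 were higher and 0 lower (median 0.30), led by Mmp14, the membrane protease that cleaves CD44 (1.58, SE 0.12, 5.45e-05), and Cd74 (1.07, SE 0.15, 0.00290), which signals with CD44. Of 4 tested partners of CD69 and CD83, Cd9 was higher (0.53, SE 0.12) and Klf2, the factor that maintains S1pr1, was lower (-1.44, SE 0.15, 0.000482).

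Intracellular signalling genes were counted in the same way. Of 20 genes downstream of CD28 and ICOS, Malt1 was higher (0.67, SE 0.12) and Pik3ip1 (-0.62, SE 0.13) and Pdk1 (-0.53, SE 0.09) lower, with a list median of -0.04. Pdk1 is the symbol of pyruvate dehydrogenase kinase 1, a mitochondrial enzyme and not the kinase of the PI3K pathway that shares the name, so every count of this list includes 1 metabolic enzyme. Of 12 genes of inhibitory signalling around CD5 and KLRG1 only Ptpn11, the phosphatase SHP-2, was called (0.60, SE 0.10, higher), and of 9 genes of NAD metabolism only Nampt (0.49, SE 0.13, higher). Among 20 other surface markers of T cell activation, a list that also holds Cd80, 3 were higher and 0 lower (median 0.16). Effector Treg genes had 8 higher and 0 lower of 15 (median 0.53), and central Treg genes 0 higher and 3 lower of 11 (median -0.53). These lists count genes and were given no test of their own.

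After stimulation, other members separated the genotypes. Icos was 1.86-fold higher in cKO than in WT, whereas Cd5 was 1.69-fold and Cd28 1.60-fold lower. Klrg1 and Cd44, which differed ex vivo, did not pass the test. In all, 3 of the 8 genes were called, 1 higher and 2 lower, where 6.93% of all tested genes were called, 3.30% higher and 3.63% lower.

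Icos was at 85.9, 72.8 and 89.6 scaled TPM in WT stimulated and at 166, 177 and 125 in cKO stimulated. The lowest cKO library lay above the highest WT library by a wide margin, though cKO values varied more. The log2 difference was 0.90 (SE 0.13, limma adjusted p 0.00212), and all 12 fits without a library kept the call, at up to 0.0141. In deposited TPM, where the means were 90.8 ± 20.7 and 141 ± 43.8 (SD, n = 3), it was 0.61 and missed the threshold (0.156).

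Cd28, the receptor that the plate-bound antibody engaged, was at 103, 112 and 110.3 scaled TPM in WT stimulated and at 65.6, 76.8 and 60.2 in cKO stimulated. The groups were apart, with a log2 difference of -0.68 (SE 0.11, limma adjusted p 0.00443; at most 0.0291 over the 12 fits without a library). Ex vivo its difference had been 0.01.

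Cd5, the inhibitory receptor, was at 282, 284 and 307 scaled TPM in WT stimulated and at 171, 195 and 149.8 in cKO stimulated. All cKO libraries were below all WT libraries. The log2 difference was -0.76 (SE 0.12, limma adjusted p 0.00329; at most 0.0191 without a library). The calls of Icos, Cd28 and Cd5 were lost when the filter was lowered to 1 TPM (adjusted p 0.351, 0.198 and 0.182), where 33873 genes entered the fit and the factors.

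Both early activation markers were lower in cKO without passing the test. Cd69 was at 132, 164 and 143 scaled TPM in WT and 97.1, 109.6 and 91.5 in cKO. Cd83 was at 93.8, 124 and 94.4 in WT and 79.8, 81.4 and 64.5 in cKO. In neither gene did the libraries of the genotypes overlap, at log2 differences of -0.55 (95% interval -1.0 to -0.10, limma adjusted p 0.133) and -0.46 (-0.80 to -0.11, 0.110), and voom on the recovered reads called both (0.0164 and 0.0269).

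The pair that differed ex vivo came close together, and the test of this change, given below as the interaction, called Klrg1 but not Cd44. Klrg1 was at 10.4, 8.20 and 9.48 scaled TPM in WT and 10.6, 10.3 and 11.3 in cKO, with a log2 difference of 0.19 (95% interval -0.02 to 0.40). Cd44 was at 22.9, 23.5 and 28.4 in WT and 31.3, 24.6 and 23.0 in cKO (0.07, -0.23 to 0.37). Cd38 was at 6.45, 5.74 and 7.64 in WT and 6.96, 6.77 and 6.91 in cKO (0.06, -0.20 to 0.31). For these 3 genes the genotypes overlapped, and the direction was opposite with the TPM as deposited.

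In the lists, 2 of 8 relatives and ligands were higher after stimulation and 0 lower (median -0.06, against -0.03 over all tested genes), again Cd80 (0.94, SE 0.22, limma adjusted p 0.0260) and Cd274 (0.53, SE 0.13, 0.0366). Of 12 genes of inhibitory signalling around CD5 and KLRG1, 0 were higher and 2 lower, Ptpn6, the phosphatase SHP-1 (-0.67, SE 0.09, 0.00204), and Ubash3a (-0.56, SE 0.10, 0.00654). Of 20 genes downstream of CD28 and ICOS, only Lck, the kinase of the proximal receptor signal, was called, and it was lower (-0.43, SE 0.10, 0.0270). Of 4 tested partners of CD69 and CD83, S1pr1 (-1.26, SE 0.18, 0.00202) and S1pr4 (-0.82, SE 0.11, 0.00143) were lower and 0 were higher.

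Other surface markers of activation had 5 higher and 2 lower of 20 (median 0.18), with Ly6a the largest rise (1.49, SE 0.22) and Cd27, a costimulatory receptor of the TNF receptor family, the largest fall (-1.15, SE 0.12). CD44 partners had 2 higher (Mmp14, 1.24, and Cd74, 0.87) and 1 lower (Msn, -0.52) of 7, and NAD genes 2 higher of 9, Parp14 (1.08) and Nampt (0.63). Effector Treg genes had 6 higher and 0 lower of 15, and central Treg genes 0 higher and 7 lower of 11.

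**Figure D2:**
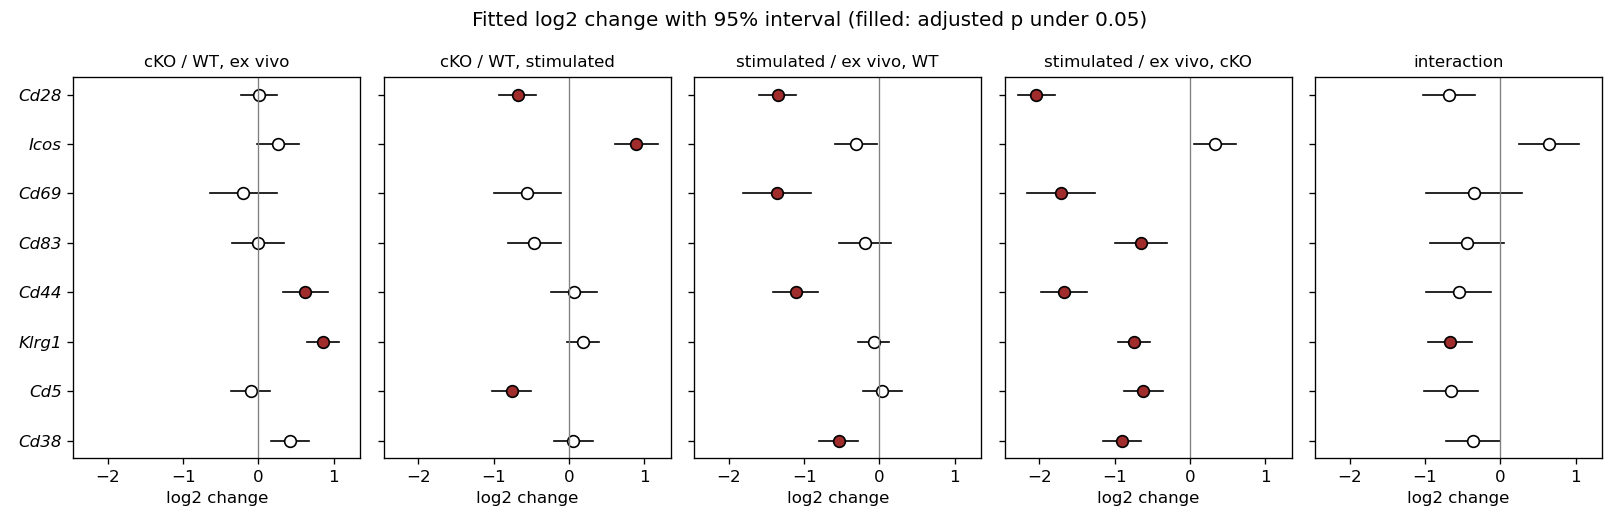
Fitted log2 change (horizontal axis, log2 of scaled TPM + 1) with its 95% interval for the 8 genes in the 5 comparisons; filled points had an adjusted p under 0.05. Ex vivo only Klrg1 and Cd44 are filled, after stimulation Icos, Cd28 and Cd5, and under stimulation every filled point lies below 0.

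The second question was how these genes differed between stimulated and ex vivo Treg of each genotype. No group was cultured for 4 h without the antibodies, so effects of the antibodies and of culture cannot be told apart. Changes with stimulation, here and below, hold both. In WT 4 of the 8 fell and in cKO 7. In WT the falls were Cd69 (2.57-fold), Cd28 (2.55-fold), Cd44 (2.17-fold) and Cd38 (1.46-fold), and in cKO the same 4 genes fell together with Klrg1, Cd83 and Cd5. Icos was the only gene of the 8 that was called in neither genotype in the reported fit. Genes used as controls of the stimulus did rise, 7 of 10 in WT and 8 of 10 in cKO, among them Tnfrsf9 (log2 change 1.85 and 2.26) and Egr3 (1.70 and 1.41), with 1 lower in each, Nr4a1 in WT (-0.55, limma adjusted p 0.0307) and Egr1 in cKO (-0.69, 0.0404), both immediate early genes. Between the genotypes, 1 of these 10 controls was higher and 1 lower ex vivo, and 3 were higher after stimulation. In WT 4 of the 8 genes were called, all lower, beside 32.0% of all tested genes (12.7% higher, 19.3% lower). In cKO 7 were called, all lower, beside 43.8% (17.3% higher, 26.5% lower). The median change of all tested genes was 0.00 in WT and -0.01 in cKO. The TMM factors were computed from these same genes, which holds this median near 0. The falls are therefore relative to the median gene, and a change in total RNA was not measured. Without the female library the same 4 genes were called in WT, and the WT changes were -1.36 for Cd28, -0.50 for Cd38, -0.05 for Klrg1, -0.06 for Cd83, 0.10 for Cd5 and -0.32 for Icos.

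Cd28 changed most in cKO. From the ex vivo to the stimulated libraries given above it fell by 1.35 on the log2 scale in WT (SE 0.11, limma adjusted p 1.20e-05) and by 2.04 in cKO (SE 0.11, 9.79e-07), that is 2.55-fold and 4.11-fold. The highest stimulated library was at 112 scaled TPM and the lowest ex vivo library at 248. Cd69 fell by 1.36 (SE 0.20, 0.000517) in WT and by 1.71 (SE 0.20, 9.42e-05) in cKO, and Cd44 by 1.11 (SE 0.14, 0.000139) and 1.67 (SE 0.14, 7.93e-06). The ex vivo and stimulated libraries of Cd69 and Cd44 did not overlap in either genotype, and without the female WT library the WT changes were -1.11 for Cd69 and -1.10 for Cd44.

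Cd38 fell by 0.54 in WT (SE 0.12, limma adjusted p 0.00491) and by 0.90 in cKO (SE 0.12, 0.000161). With the deposited TPM the WT call was lost. Klrg1 changed by -0.08 in WT (95% interval -0.29 to 0.13) and fell by 0.75 in cKO (SE 0.10, 0.000153), where every stimulated library was below every ex vivo library. Cd83 changed by -0.20 in WT (-0.54 to 0.15) and fell by 0.64 in cKO (SE 0.16, 0.00783). Under quantile normalization the Cd83 value in cKO was -0.04 and no longer called.

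Cd5 moved least of the 8 genes in WT, by 0.04 (95% interval -0.22 to 0.30), and fell by 0.62 in cKO (SE 0.12, limma adjusted p 0.00185). Its values depended on the scaling, and quantile normalization gave 0.81 in WT (called, 6.34e-06) and 0.10 in cKO (not called). Icos changed by -0.31 in WT (-0.59 to -0.03, adjusted p 0.0850) and by 0.33 in cKO (0.05 to 0.61, 0.0559). The WT stimulated libraries all lay below the WT ex vivo libraries, whereas in cKO the third stimulated library (125) lay within the ex vivo range. Its value in cKO passed the test under 4 of 13 other scalings, filters and models (0.58 with a 10 TPM filter, 1.01 with quantile normalization, 0.39 with median of ratios and 0.32 with voom), and was -0.22 with the 1 TPM filter. It was also called without the female WT library (0.38, adjusted p 0.0404) and without the third cKO stimulated library (0.52, 0.00359), and was 0.19 without the second cKO stimulated library (0.267). The WT change was called with voom (-0.32, 0.0474) and without the third cKO stimulated library (-0.31, 0.0241).

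**Figure D3:**
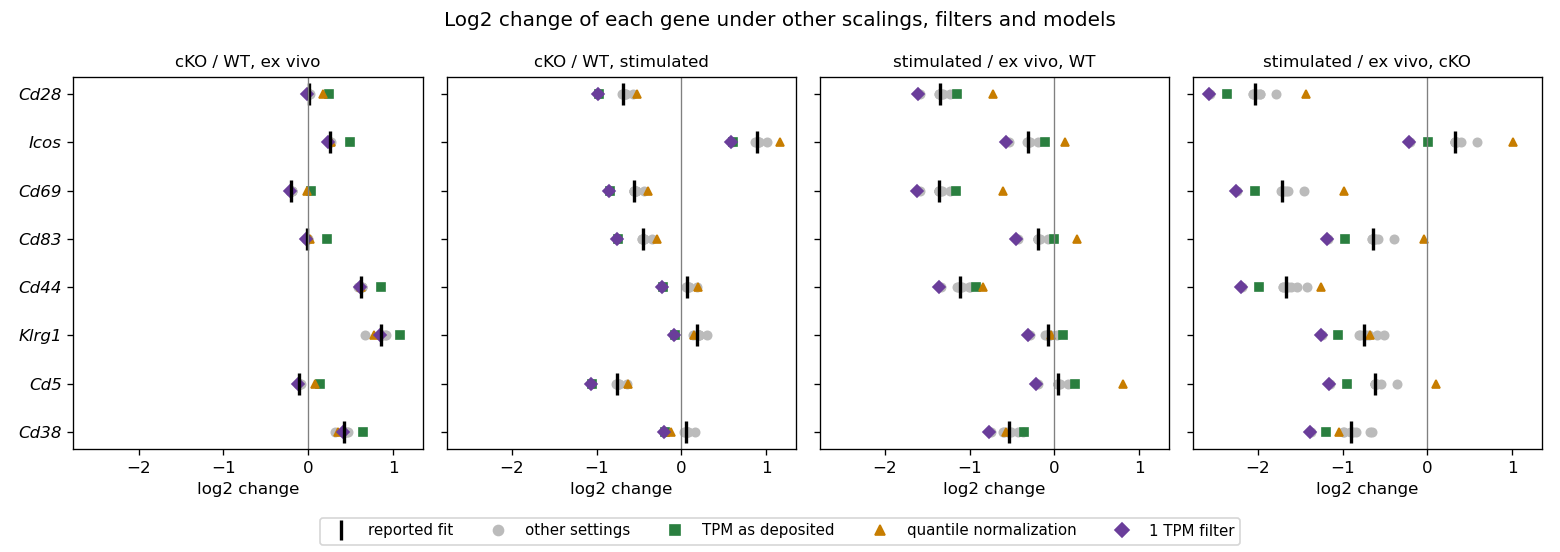
Log2 change (horizontal axis) of each gene in the 4 pairwise comparisons under the reported fit (black ticks) and 13 other scalings, filters and models. TPM as deposited and the 1 TPM filter both move the genotype effect after stimulation and the stimulation effect in cKO to the left, and go opposite ways for stimulation in WT (TPM as deposited to the right), and quantile normalization moves most stimulation effects to the right.

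Other genes of the same pathways also fell with stimulation. Of 20 genes downstream of CD28 and ICOS, 1 was higher and 14 lower in WT (median -0.73) and 0 higher and 15 lower in cKO (median -0.77), including Pik3cd (-1.22, SE 0.10) and Themis (-1.11, SE 0.10) in WT and Malt1 (-1.39, SE 0.12) and Lck (-1.32, SE 0.10) in cKO. Of 12 genes of inhibitory signalling, 2 were higher and 5 lower in WT and 1 higher and 8 lower in cKO; the ubiquitin ligase gene Cblb was the largest rise in both (1.34 and 1.31) and Ptpn6 the largest fall (-0.65 and -1.15). Among the relatives, Pdcd1, which encodes PD-1, rose by 3.17 (SE 0.12) in WT and 2.46 (SE 0.12) in cKO while Ctla4 fell by 1.85 and 1.38. In that list 4 were higher and 1 lower of 8 in WT, and 2 higher and 1 lower in cKO.

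Partners of CD69 and CD83 had 1 higher and 3 lower of 4 in both genotypes, with Klf2, also counted among the central Treg genes, falling by 3.60 in WT and 2.69 in cKO and S1pr1 by 1.37 and 2.03. CD44 partners had 1 higher and 4 lower of 7 in WT and 0 higher and 5 lower in cKO, and NAD genes 2 higher and 2 lower of 9 in WT and 3 higher and 3 lower in cKO. Other surface markers of activation were evenly divided, 8 higher and 8 lower of 20 in each genotype, with Tnfrsf9 the largest rise and Slc3a2 the largest fall (-1.55 in WT, -1.56 in cKO). Effector Treg genes had 3 higher and 8 lower of 15 in WT and 3 higher and 7 lower in cKO, and central Treg genes 1 higher and 6 lower of 11 in WT and 0 higher and 9 lower in cKO.

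The third question was whether stimulation acted differently in the 2 genotypes, tested as the interaction, the log2 change in cKO minus that in WT. Of the 8 genes only Klrg1 was called, lower, beside 1.10% of all tested genes (0.451% higher, 0.653% lower). Its interaction was -0.67 (SE 0.14, limma adjusted p 0.0454), that is a fall of 0.75 in cKO beside a change of -0.08 in WT. This call was close to the threshold and was kept by 2 of 12 fits without a library (adjusted p up to 0.128; -0.65 and 0.112 without the female library). It was also lost with a 10 TPM filter (0.0601), voom (0.1005), median of ratios (0.0573), TPM as deposited (0.0715), no trend (0.0687), the replicate number as a block (0.0547), a pseudocount of 0.1 (0.0572), and a 1 TPM filter or none (up to 0.507). Cd28 (-0.69, SE 0.16, adjusted p 0.0671), Cd5 (-0.66, SE 0.16, 0.0907) and Icos (0.64, SE 0.18, 0.123) had interactions of like size and did not pass. The same 3 were called with quantile normalization, with a 10 TPM filter and with voom on the recovered reads. Of the 12 fits without a library, 2 called Cd28 (without cKO ex vivo 2 or cKO stimulated 2, adjusted p down to 0.0372), 1 called Icos (without cKO stimulated 3, 0.0275) and 0 called Cd5. Without the female library the interactions were -0.64 for Cd28 (adjusted p 0.143), -0.67 for Cd5 (0.131) and 0.70 for Icos (0.163), and -0.52 for Cd44, -0.54 for Cd83, -0.36 for Cd38 and -0.55 for Cd69, with 0 of the 8 genes called. For Cd44 (-0.55), Cd83 (-0.45), Cd38 (-0.36) and Cd69 (-0.35) the test was not passed under any alternative. In the lists the interaction was called for Parp14 (0.96) of the NAD genes, Cd27 (-0.85) of the activation markers, Tcf7 (-1.30) of the central and Cxcr3 (-0.86) of the effector Treg genes, and for 0 genes of the other lists.

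Scaling cancels in a ratio of 2 genes within a library, so Icos and Cd5 were also read against Cd28. The choice of these ratios was made after the values were seen. The Icos to Cd28 ratio of TPM was 0.341, 0.402 and 0.365 in WT ex vivo and 0.433, 0.463 and 0.421 in cKO ex vivo. After stimulation it was 0.835, 0.648 and 0.812 in WT and 2.53, 2.30 and 2.08 in cKO. Each group stood apart from the other 3. The ratio was higher in stimulated than in ex vivo libraries, by 2.06-fold in WT and 5.23-fold in cKO, and stimulated cKO was 3.02-fold above stimulated WT. Exact permutation tests (two-sided) of these 3 differences and of the genotypes ex vivo each gave p 0.1, the lowest value that 3 libraries against 3 allow, so none could pass 0.05 and the ratios are read as a description.

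The Cd5 to Cd28 ratio behaved otherwise. It was 0.966, 0.977 and 1.11 in WT ex vivo and 0.974, 0.956 and 0.895 in cKO ex vivo, and the genotypes overlapped (exact permutation p 0.2). Stimulated libraries were at 2.74, 2.52 and 2.78 in WT and 2.61, 2.54 and 2.49 in cKO, again overlapping (exact permutation p 0.3). The ratio was 2.64-fold higher in stimulated than in ex vivo libraries in WT and 2.71-fold in cKO (exact permutation p 0.1 in each), whereas the ratio of the genotypes was 0.950 after stimulation. Cd5 and Cd28 were thus lower in stimulated cKO by nearly the same factor.

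**Figure D4:**
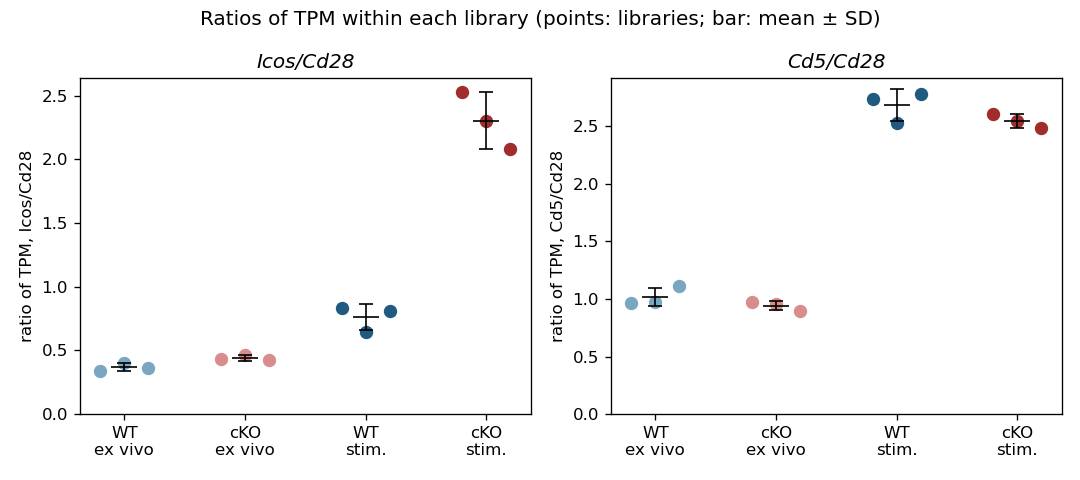
Ratio of TPM within each library (vertical axes, from 0) for Icos to Cd28 and Cd5 to Cd28; points are libraries and bars the mean ± SD of 3. The Icos to Cd28 ratio separates all 4 groups and is highest in cKO stimulated (2.30 ± 0.222), and the Cd5 to Cd28 ratio separates ex vivo from stimulated libraries but not the genotypes.

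Over the 12 libraries, which share their groups, pairs of the 8 genes were alike to different degrees. Cd28 and Cd69 (Pearson r 0.96), Cd44 and Cd38 (0.95) and Cd44 and Cd28 (0.89) rose and fell together, Klrg1 went with Cd38 (0.77) and Cd44 (0.75), and Icos ran against Cd5 (-0.69) and Cd83 (-0.45). Among all tested genes, those most like each member were Dgkz (r 0.997) and Rbm38 (0.997) for Cd28, Rnf19b (0.96) and Ptpn13 (0.94) for Icos, Cetn2 (0.99) and Bmi1 (0.98) for Cd69, and Mcts1 (0.93) and 2810422J05Rik (0.93) for Cd83. For Cd44 they were Scd2 (0.98) and Trerf1 (0.98), for Cd5 Lfng (0.97) and Rnf145 (0.96), for Cd38 Nkg7 (0.98) and Ccrl2 (0.97) and for Klrg1 Podnl1 (0.96) and Tcirg1 (0.95). Rnf19b, for example, had group means of 59.1, 91.2, 36.1 and 113 scaled TPM in the order of groups used in the plots (WT then cKO ex vivo, WT then cKO stimulated), the same order of groups as Icos. Podnl1, at 6.68, 17.4, 5.05 and 7.39, shared the order of Klrg1. These correlations across libraries carry no test, since a few group differences set them.

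Markers of other cells were measured because B cells, myeloid cells and NK cells also express some of the 8 genes. The summed level of 12 B cell markers was 60.5 to 76.9 scaled TPM in WT and 119 to 135 in cKO before stimulation, and 54.8 to 64.6 and 99.3 to 106 after it, so it was higher in cKO in both conditions. Much of this sum was Cd74, which is not confined to B cells. Without it the sum of the other 11 was 22.2 to 35.9, 33.4 to 44.0, 29.1 to 32.2 and 37.5 to 57.5 in the same order of groups. Cd79b, a subunit of the B cell receptor, had means of 6.31 scaled TPM in WT and 10.7 in cKO ex vivo, and of 3.67 and 7.81 after stimulation (log2 difference 0.96, limma adjusted p 0.0283). Its partner Cd79a and Ms4a1, which encodes CD20, had means of at most 2.99 in every group, and neither was at 0 in any library. Of the 3 B cell markers that passed the filter, 1 was higher in cKO ex vivo (Cd74) and 2 after stimulation (Cd74 and Cd79b).

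The sum of 6 NK cell markers was 7.47 to 13.7 in WT and 8.65 to 12.3 in cKO before stimulation, and 10.3 to 13.3 and 14.3 to 19.9 after it, so the genotypes overlapped ex vivo and were apart after stimulation. No NK cell marker passed the filter, and none was tested. The median of the olfactory and vomeronasal receptor genes was also higher in stimulated cKO (1.18 scaled TPM) than in stimulated WT (0.871). Of 12 myeloid and dendritic cell markers 1 passed the filter and was not called, and their sum was 15.9 to 31.6, 18.3 to 26.7, 27.3 to 32.7 and 27.6 to 50.5 in the same order. Markers of CD8 T cells (sums of 8.72 to 14.5 over all libraries) and of erythroid cells (1.91 to 10.1) stayed low. The sum of 10 Treg and T cell markers was 3603 to 4086 scaled TPM ex vivo in both genotypes and 1893 to 2528 after stimulation, none of them at 0. Of these 10, 0 differed between the genotypes ex vivo, and 2 were higher and 2 lower in cKO after stimulation. The part of these levels in the results was not tested.

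The share of higher and lower calls over all genes moved with scaling. With TPM as deposited, the median of all tested genes shifted to 0.21 for the genotype effect ex vivo, -0.30 for it after stimulation, 0.18 and -0.31 for stimulation in WT and cKO and -0.52 for the interaction, and the percentage of calls that were higher was 95.2, 22.5, 60.5, 11.9 and 8.96, against 68.5, 47.6, 39.6, 39.5 and 40.8 after TMM scaling. Quantile normalization made 51.8% of the calls of stimulation in WT higher. Members are therefore read relative to the median gene. The share also moved with the filter and with single libraries. At a 1 TPM filter 16.5% of the stimulation calls in WT and 12.8% in cKO were higher. For the genotype effect after stimulation the share was 34.1% without cKO stimulated 2 and 66.9% without cKO stimulated 3.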

How the data were processed

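RNA was sequenced in 12 libraries of sorted Treg, 3 per group. The label names spleen as their source, whereas the general purification methods of the study name spleen and lymph node. Per the labels and methods, the authors depleted rRNA, made strand-specific libraries, read 51 bp paired ends, aligned them with STAR 2.6.0c to mm9 and used HTSeq 0.6.1 to count reads over Ensembl exons by strand. The deposited signal per gene is TPM, and the log2 values deposited by the authors add the TPM of 1 read, so that reads could be recovered (99.9977% of values whole within 0.01). A second deposited table with fold changes, p-values and false discovery rates of the authors' own comparisons was not used.

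The 8 genes, partner lists and marker lists were chosen with earlier results of these data known. Genes with a highest group mean of 5 TPM or more were scaled by TMM (M-values trimmed by 30%, A-values by 5%). With a pseudocount of 1, limma 3.58.1 (R 4.3.3, mean-variance trend) was fitted on log2 values of all 12 libraries with group as the only term. Values are fold changes of log2(scaled TPM + 1), which understate changes of low genes. P-values were two-sided, adjusted by Benjamini-Hochberg within a comparison and called under 0.05. The replicates were separate mice. Of the lists, at most the 2 largest called rises and falls per comparison are named, besides the 2 genes most correlated with each member.

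The fit was tested on simulated data with known changes. Tables were read with Python 3.11.15. Alternatives changed the filter (1, 10 or no TPM), the pseudocount (0.1 or 5), the scaling (none, median of ratios, quantile), the model (voom on recovered reads, replicate block, no trend, robust, only the groups compared) or left out each library.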

Additional observations from a re-analysis of the deposited data

Results flagged for a closer look

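Klrg1 is singled out because its response to stimulation differed between the genotypes by a test of the difference itself. The interaction in limma was -0.67 on the log2 scale (SE 0.14, Benjamini-Hochberg adjusted p 0.0454). Klrg1 fell in cKO, where all 3 stimulated libraries were below all 3 ex vivo libraries, and overlapped between conditions in WT. Over the 24 alternatives the interaction ranged from -1.16 to -0.53 and 5 of them called it, with adjusted p-values of 0.0285 to 0.507.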

How the results depend on the processing

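Of 992 fitted changes of the 8 genes under 25 alternatives, 889 kept their direction and side of the threshold, 37 lost and 25 gained the call, and 41 changed direction; 0 of these 41 were called both before and after. The causes were not tested. Fits on only 2 groups cannot give the interaction. Klrg1 (84 to 382 reads per library) and Cd38 (109 to 580) had the fewest reads of the 8 genes, and 3 mice per group limit every comparison.

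Counts of members called moved as follows. Ex vivo (2 called) the count was 0 with the 1 TPM filter, 0 with no filter, 1 with TPM as deposited and 1 to 2 when a library was left out (1 without WT ex vivo 2 or 3 or cKO ex vivo 1 or 3). After stimulation (3 called) it was 0 with the 1 TPM filter, 0 with no filter and 5 with voom. For the interaction (1 called) it was 0 with the 1 TPM filter, no filter, pseudocount 0.1, TPM as deposited, median of ratios or no trend, 3 with the 10 TPM filter, 3 with voom, 4 with quantile normalization and 0 to 1 without a library (0 without WT ex vivo 2 or 3, cKO ex vivo 1 or 3, WT stimulated 1 or 3, or cKO stimulated 1).

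With the replicate number as a block 0 members had a called interaction (Klrg1 -0.67, adjusted p 0.0547), and no other call of a member changed. The numbers are not known to pair the mice: 2 of 18 same-numbered pairs correlated above 0.1 (-0.21 to 0.26). These 2 pairs (0.15 and 0.26) were of WT and cKO ex vivo. There every WT library correlated best with the cKO library of its own number.

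Ex vivo, values that changed sign were Cd69 0.038, Cd83 0.23 and Cd5 0.13 with TPM as deposited, Cd83 0.022 and Cd5 0.075 with quantile normalization, Cd83 0.0027 with only the groups compared, and Cd28 -0.011 with the 1 TPM filter, -0.0049 with the 10 TPM filter and -0.0084 with median of ratios. After stimulation they were, with the 1 TPM filter, no filter and TPM as deposited in turn, Cd44 -0.23, -0.22 and -0.21, Cd38 -0.205, -0.20 and -0.1965, and Klrg1 -0.09, -0.087 and -0.078, besides Cd38 -0.12 with quantile normalization. For stimulation in WT they were Cd83 0.0012 with TPM as deposited and 0.27 with quantile normalization, Cd5 -0.22 with the 1 TPM filter and -0.19 with no filter, Klrg1 0.035 with the 10 TPM filter and 0.10 with TPM as deposited, and Icos 0.12 with quantile normalization. For stimulation in cKO they were Cd5 0.10 with quantile normalization, and Icos -0.22 with the 1 TPM filter and -0.21 with no filter. Leaving out a library gave -0.39 to 0.036 for Cd69, -0.14 to 0.12 for Cd83 and -0.054 to 0.091 for Cd28 ex vivo, -0.055 to 0.18 for Cd44 and -0.0265 to 0.15 for Cd38 after stimulation, and -0.026 to 0.10 for Cd5 under stimulation in WT.

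Adjusted p over the alternatives ranged from 6.95e-05 to 0.141 for Klrg1, 0.00397 to 0.665 for Cd44 and 0.0124 to 0.726 for Cd38 ex vivo, and after stimulation from 2.12e-05 to 0.351 for Icos, 0.000237 to 0.198 for Cd28, 8.79e-05 to 0.184 for Cd5, 0.0164 to 0.350 for Cd69 and 0.0269 to 0.359 for Cd83. For the interaction it ranged from 0.0102 to 0.667 for Cd28, 0.00373 to 0.694 for Cd5 and 0.0129 to 0.820 for Icos.

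Over all genes the calls moved by more than 1.5 times as follows. The genotype effect ex vivo (704) had 57 with the 1 TPM filter, 56 with no filter, 273 with TPM as deposited, 1203 with voom, 400 with only the groups compared and down to 324 without a library. The genotype effect after stimulation (923) had 68, 68 and 306 under the first 3 of these, 1579 with quantile normalization, 552 with only the groups compared and down to 398 without a library. Stimulation in WT (4262) had 1838, 1694 and 1943 under the first 3. The interaction (147) had 0, 0 and 67 under the first 3, where 2405, 2686 and 4225 had an unadjusted p under 0.05, 337 with the 10 TPM filter, 392 with quantile normalization, 395 with voom, 65 with the block, 95 with no trend and down to 50 without a library. Of 3968 counts of list genes under alternatives, 3464 stayed within 1.5 times.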
